A study of Mus musculus with 2 samples.

Results

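The 38 genes described here encode hormones, digestive enzymes and regulators that are known from the pancreas and gut and that medullary thymic epithelial cells (mTEC) can express as self-antigens. They were chosen by name, with earlier results of these data known, and so were the lists of other genes used below. A gene counted as measured when a probe set annotated with its symbol alone was in the deposited table, and where a gene has several, the probe set with the highest mean stands for it. This gave 36 of the 38 genes, each with 1 probe set, among 19937 named genes. Pcsk2 and Pnlip were not analysed here.

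The cells came from thymi of B6 mice, 6 weeks old, with floxed Hdac3. The group labelled WT (HDAC3fl/fl) had no Cre, and the group labelled HDAC3cKO carried Foxn1-Cre, which is driven by a gene of thymic epithelium. HDAC3 is a histone deacetylase of corepressor complexes. The cells sorted were mTEClo, that is EpCAM+, CD45-, Ly51low and MHC-II low, and those of the group labelled HDAC3cKO were the cells that remained in its thymi, typically pooled from 10 to 30 mice to reach 30000 cells. The sources used here do not give the number of mice behind the array labelled WT. Each genotype had 1 array, so no value has a replicate error and no test was possible. The arrays are called WT-labelled and cKO-labelled here. Levels below are log2 intensities, given for the WT-labelled array and then the cKO-labelled array, and a negative difference is lower on the cKO-labelled array. Hdac3 itself was at 10.90 and 11.64. That goes against the label, so each direction below is a statement about the library with that label. The sources used here do not say which exons the probe set and the floxed allele cover. The epithelial marker Epcam was at 11.33 and 11.06 on these arrays. Ptprc, which encodes the CD45 excluded in the sort, was at 9.63 and 8.79, above the low reference defined below on both arrays.

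Medullary epithelium displays proteins of many peripheral organs to developing T cells, which deletes or diverts T cells that recognise them. The transcription regulator Aire and the transcription factor Fezf2 each drive part of this expression, and some mTEC take on features of peripheral cell types, endocrine cells among them. Insulin is the textbook example of such an antigen, since its level in the thymus bears on autoimmunity to islet beta cells. In islets and gut, endocrine cells store peptide hormones in dense-core granules, where prohormone convertases cut the precursors. Acinar cells of the exocrine pancreas secrete zymogens and lipases under the control of PTF1A.

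Of the 36 measured genes, 8 were lower on the cKO-labelled array by 2-fold or more and none was higher by that much. The same thresholds were passed by 5.88% of all 19937 genes downward and by 2.97% upward. The 8 genes are 22.2% of those measured. They were the hormone genes Sst, Iapp, Gcg and Ghrl, the convertase gene Pcsk1, the granule gene Ptprn2, and the pancreatic genes Ctrb1 and Clps. The median difference over the 36 genes was -0.13, beside 0.01 over all genes, and 25 of the 36 lay below 0. Gcg, at -1.01, lay just past the threshold. The nearest gene short of it was Cel, at -0.64, and on the upper side Cck reached 0.96.

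The table gives no detection calls, so the low end of the scale was described with 1027 olfactory receptor genes, known from the nose, although mTEC may express some of them. Their 95th percentile was 6.66 on the WT-labelled array and 6.64 on the cKO-labelled array. Probe sets differ in how brightly they report the same amount of RNA, so this is a guide and not a detection test. Of the 36 genes, 23 lay above it on the WT-labelled array and 20 on the cKO-labelled array. Gcg, Pcsk1 and Cel were above it on the WT-labelled array alone. The 13 genes below it on both arrays differed by between -0.27 and 0.18. The central 95% of the olfactory receptor genes differed by between -0.30 and 0.35, and 20 of the 36 genes lay within that range.

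**Figure D1:**
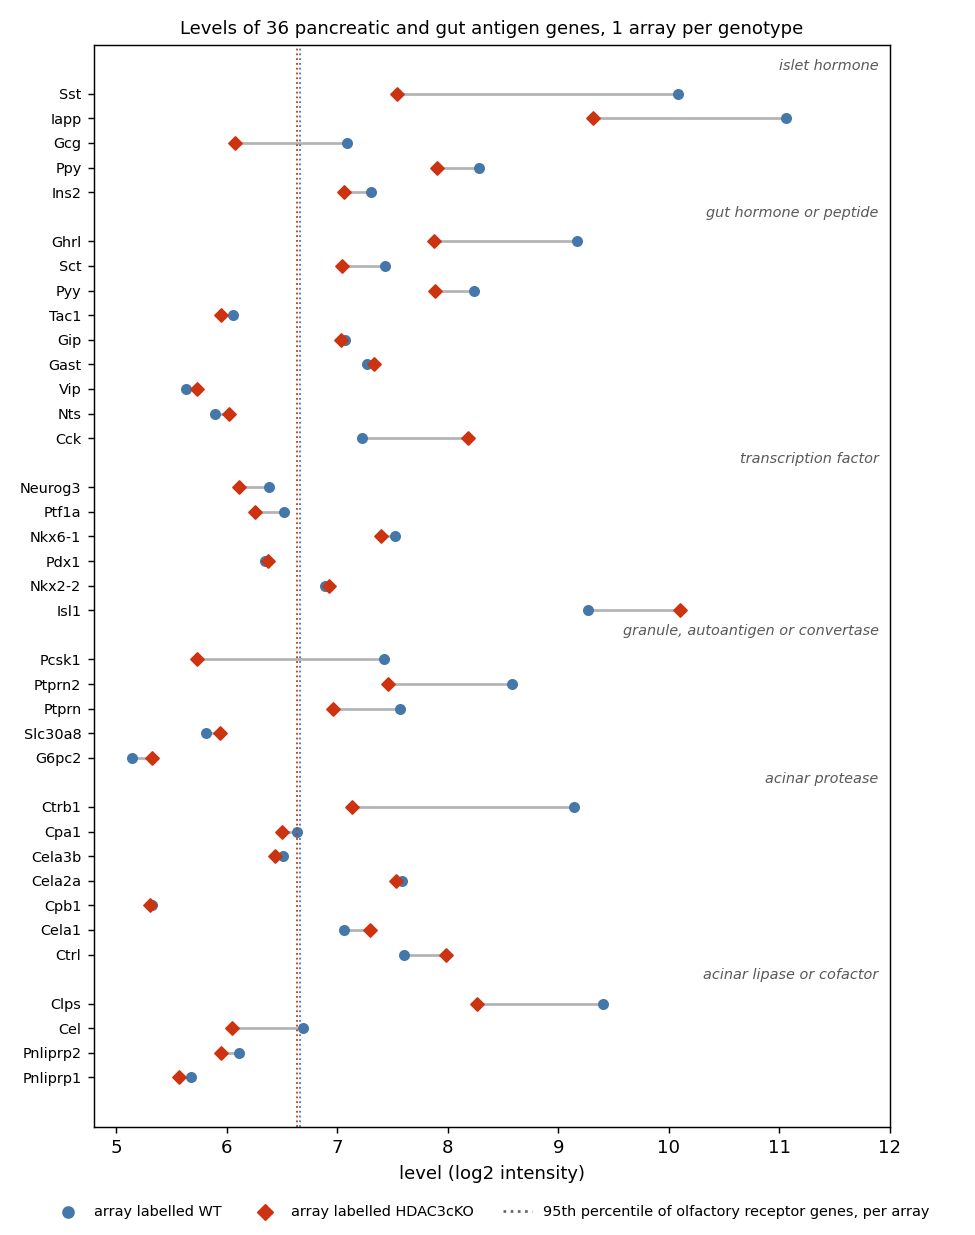
The level of each measured gene on both arrays, as log2 intensity, with circles for the WT-labelled array, diamonds for the cKO-labelled array and a grey line for the difference; genes are grouped by role and each point is 1 array. Long lines run to the left from the circle for 8 genes, led by Sst at -2.55, while Cck and Isl1 run to the right; the dotted lines mark 6.66 and 6.64, the 95th percentile of olfactory receptor genes on each array.

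Among islet hormones, all 5 measured genes were below 0, under each scaling tried. Of the 5, 3 (60%) passed 2-fold downward, beside 5.88% of all genes. The median difference was -1.01. Sst encodes somatostatin, the inhibitory hormone of islet delta cells and of gut D cells. Its level was 10.09 on the WT-labelled array and 7.54 on the cKO-labelled array, 5.84-fold lower. Iapp encodes amylin, which beta cells release together with insulin, and was at 11.06 and 9.32, 3.34-fold lower. Gcg, the precursor gene of glucagon and of the gut peptide GLP-1, was at 7.09 and 6.08, 2.02-fold lower. The last level is below the low reference, so the fold of Gcg rests on a probe set near the bottom of the scale. The call of Gcg depended on scaling, with a difference of -0.96 after median centring and -0.99 after quantile normalization.

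Insulin and pancreatic polypeptide differed by less than 2-fold. Ins2, the insulin gene that mTEC express, was at 7.31 and 7.06, a difference of -0.24 that lies within the range of the olfactory receptor genes. Ins1, its near-copy, was not analysed here, and related transcripts can bind the same probes. Ppy, which encodes pancreatic polypeptide, was at 8.29 and 7.90, a difference of -0.38. The other hormone of the beta cell, amylin, thus had a difference of -1.74 where Ins2 had -0.24. The difference between genes was not tested.

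Among the 9 gut hormones and peptides, Ghrl alone (11.1%) was at least 2-fold lower, beside 5.88% of all genes. The median difference was -0.04. Ghrl encodes ghrelin, the appetite hormone of the stomach, and was at 9.17 on the WT-labelled array and 7.87 on the cKO-labelled array, 2.45-fold lower. Sct, encoding secretin, which drives bicarbonate release from the pancreas, was at 7.43 and 7.04, a difference of -0.39. Pyy, encoding the satiety peptide YY of the lower gut, was at 8.23 and 7.89, a difference of -0.35 beside -0.38 for Ppy. These 2 genes belong to the same peptide family and lie next to each other on the chromosome.

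Cck went the other way. It encodes cholecystokinin, which stimulates pancreatic enzyme secretion and gallbladder contraction, and was at 7.23 and 8.19, 1.94-fold higher on the cKO-labelled array. After median centring its difference was 1.01, just past the 2-fold threshold. The incretin gene Gip, at 7.07 and 7.03, and the gastrin gene Gast, at 7.27 and 7.33, differed by -0.04 and 0.06. Nts (neurotensin, at 5.89 and 6.02), Tac1 (the substance P precursor, at 6.05 and 5.95) and Vip (vasoactive intestinal peptide, at 5.63 and 5.74) lay below the low reference on both arrays.

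Genes of granules, islet autoantigens and hormone processing were measured for 5 of 6 members. Of the 5, 2 (40%) were at least 2-fold lower, beside 5.88% of all genes, and the median difference was -0.61. Pcsk1 encodes a convertase that cuts hormone precursors inside granules. Its level was 7.42 on the WT-labelled array and 5.73 on the cKO-labelled array, 3.23-fold lower, and the second value is below the low reference. Ptprn2 and Ptprn encode IA-2beta and IA-2, granule membrane proteins that are autoantigens in type 1 diabetes. Ptprn2 was at 8.58 and 7.46, 2.18-fold lower, and Ptprn was at 7.57 and 6.96, a difference of -0.61. The other islet autoantigens were near the bottom of the scale on both arrays. G6pc2, a glucose-6-phosphatase of beta cells, was at 5.14 and 5.32, and Slc30a8, the zinc transporter of insulin granules, was at 5.81 and 5.94.

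Other genes of granules and secretion were mostly below 0. Of 24 measured, 7 (29.2%) passed 2-fold downward, beside 5.88% of all genes. None passed it upward and 20 lay below 0, with a median of -0.45. Cadps, which primes dense-core vesicles for release, was at 9.28 and 7.03, 4.74-fold lower. Snap25, a SNARE protein of vesicle fusion, was 4.34-fold lower. Further members were named after their values were seen. Abcc8, the sulfonylurea receptor of the beta cell potassium channel, was 2.83-fold lower, while Kcnj11, of the same channel, differed by -0.32. Pam, which amidates peptide hormones, was 2.08-fold lower. Of the list, 4 genes lay above 0, the highest being Syt4 at 0.30. Chga, the granin used as the general endocrine marker, was at 13.20 and 12.84 and differed by -0.36. Other granin-family genes of the list, also named after their values were seen, differed by more or by less than Chga. Chgb was at 8.41 and 6.34, 4.22-fold lower with its second level below the low reference, and Scg2 was 2.36-fold lower. Scg5 also differed more, by -0.74, as did Scg3, at 6.06 and 5.06, below the low reference on both arrays. Vgf and Pcsk1n differed less, by -0.14 and -0.17. Pooled RNA cannot tell fewer endocrine-type cells apart from less RNA per cell.

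Of 23 other hormone and neuropeptide precursors, 3 (13.0%) passed 2-fold downward, beside 5.88% of all genes. None passed it upward, and the median was -0.12. Guca2b, encoding uroguanylin of the gut, was at 9.19 and 7.54, 3.15-fold lower. Penk, encoding the enkephalin precursor, was at 9.35 and 7.90, 2.74-fold lower. The remaining 20 differed by less than 2-fold.

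The promoters of 3 genes are shown because Sst and Pcsk1, and none of the other measured genes with a promoter in the table, held the full cyclic AMP response element (CRE), the site first described in the somatostatin promoter. The sequences are the 150 bases before the annotated transcript start in RefSeq (GRCm38.p6), on the strand of the gene. Sst is at chr16:23890845-23890994 on the minus strand, Pcsk1 at chr13:75089707-75089856 on the plus strand and Cck at chr9:121495695-121495844 on the minus strand. Capitals mark the CRE and its core TGACG on either strand.
Sst: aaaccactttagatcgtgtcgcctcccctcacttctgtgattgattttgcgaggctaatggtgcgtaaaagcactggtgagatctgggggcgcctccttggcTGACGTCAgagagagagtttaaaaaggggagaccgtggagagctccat
Pcsk1: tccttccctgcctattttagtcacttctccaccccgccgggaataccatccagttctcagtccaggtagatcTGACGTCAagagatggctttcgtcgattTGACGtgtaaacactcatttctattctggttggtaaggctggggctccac
Cck: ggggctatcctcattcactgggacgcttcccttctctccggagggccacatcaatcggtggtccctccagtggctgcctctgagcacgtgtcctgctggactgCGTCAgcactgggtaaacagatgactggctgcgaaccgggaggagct

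In Sst the CRE begins 48 bases before the start, and in Pcsk1 it begins 78 bases before it, followed by a separate core 50 bases before the start. Cck, the gene with the largest positive difference among the 36, holds a core 47 bases before its start and no full CRE in this window. Of the 36 measured genes, 33 had a promoter in the table, with 39 windows in all. Ins2, Slc30a8 and Clps had none. In the 250 bases before the start, read on both strands, the CRE (TGACGTCA) was in 2 of the 39 windows (5.13%) and in 1.55% of 32851 mouse promoter windows. Its core TGACG, which every full CRE contains, was in 9 of the 39 (23.1%) and in 17.8% of all windows.

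Other motifs of endocrine and acinar regulators were counted in the same way. The E-box CANNTG, the kind of site that NEUROD1, NEUROG3 and PTF1A bind, was in 31 of the 39 windows (79.5%) and in 66.2% of all windows. The homeodomain core TAAT was in 21 of the 39 (53.8%) and in 54.9% of all windows. GTTGCC, a core of RFX sites, was in 2 of the 39 (5.13%), 1 each of Ghrl and Ptprn, and in 10.4% of all windows. The TATA box TATAAA was in 6 of the 39 (15.4%) and in 12.4% of all windows. Of the 7 lower genes with a promoter, 2 held the CRE, 1 the TATA box, 6 the E-box, 5 the TAAT core and 1 the RFX core. The motifs were chosen with the expression values known, and a match is not evidence of binding.

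None of the 6 transcription factors was 2-fold different, beside 5.88% of all genes downward and 2.97% upward. Their median difference was -0.04. Isl1, a LIM homeodomain factor of all islet endocrine cells that acts in many other tissues too, was at 9.27 on the WT-labelled array and 10.10 on the cKO-labelled array, 1.78-fold higher. Isl1 differed by 0.83 and Sst, whose promoter ISL1 is known to bind, by -2.55, with these signs under each scaling tried. A link between these values was not tested. Nkx6-1, a beta cell factor, was at 7.52 and 7.40. Nkx2-2, which islet endocrine cells need, was at 6.89 and 6.93. Pdx1, the regulator of pancreas formation and of insulin, was at 6.35 and 6.38, below the low reference on both arrays. Neurog3, which starts the endocrine fate, was at 6.39 and 6.11, and Ptf1a, the acinar regulator, at 6.52 and 6.26, also below it on both.

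Related transcription factors outside the member list did include larger differences. Of 22 measured, 3 (13.6%) passed 2-fold downward and 1 upward, beside 5.88% and 2.97% of all genes, and the median was -0.31. St18, a zinc finger factor of the MYT family that endocrine progenitors express, was at 9.57 and 6.88, 6.44-fold lower. Rfx6, which islet and gut endocrine cells require, was at 8.05 and 5.43, 6.15-fold lower, with the second level below the low reference. The factor past the threshold upward was Gata6, at 8.36 and 10.04, 3.19-fold higher. GATA6 acts in pancreas formation and also in endoderm, heart and vessels. Neurod1, the endocrine factor downstream of NEUROG3, was at 6.10 and 5.41, below the low reference on both arrays. The third lower factor, Hnf4g, is a nuclear receptor of gut epithelium and was at 8.15 and 6.49, 3.16-fold lower, again with the second level below it.

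**Figure D2:**
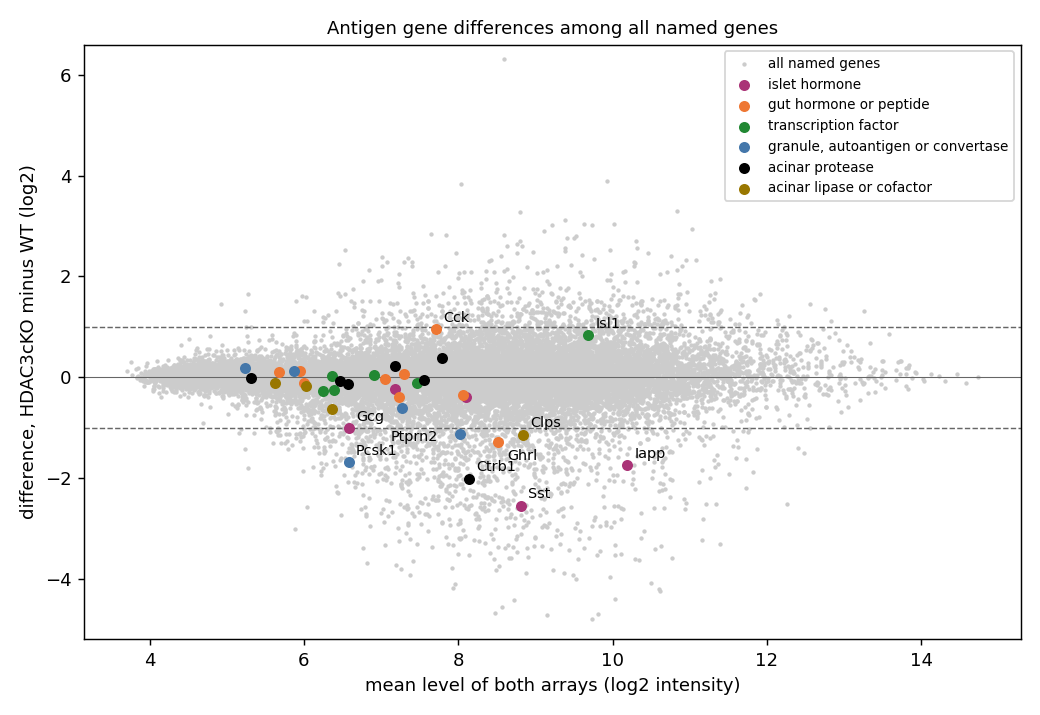
The difference between arrays (HDAC3cKO minus WT, log2) against the mean level of both arrays (log2 intensity) for all 19937 named genes in grey and the 36 antigen genes in colour by role; dashed lines mark 2-fold. The 8 lower genes lie below the line at -1, Cck at 0.96 and Isl1 at 0.83 lie just under the upper line, and the other genes lie between.

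Of 7 acinar proteases of the pancreas, Ctrb1 alone (14.3%) was at least 2-fold lower, beside 5.88% of all genes. The median difference was -0.05. Ctrb1, encoding chymotrypsinogen B, was at 9.15 on the WT-labelled array and 7.13 on the cKO-labelled array, 4.03-fold lower. Ctrl, a chymotrypsin-like protease, was at 7.61 and 7.98, a difference of 0.37 in the opposite direction. The elastase genes Cela1, Cela2a and Cela3b differed by 0.23, -0.05 and -0.07, with levels of 7.07 and 7.29, 7.59 and 7.54, and 6.51 and 6.43. The carboxypeptidase genes Cpa1, at 6.64 and 6.50, and Cpb1, at 5.33 and 5.30, lay below the low reference on both arrays. Elastase and trypsin genes have near-identical relatives, so their probe sets can pick up related transcripts.

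Of the 4 measured lipase genes and cofactors, Clps alone (25%) was at least 2-fold lower, beside 5.88% of all genes. Clps encodes colipase, which anchors pancreatic lipase to fat droplets, and was at 9.40 and 8.26, 2.20-fold lower. Cel, encoding bile salt-activated lipase, was at 6.69 and 6.05, a difference of -0.64. The lipase-related genes Pnliprp1, at 5.68 and 5.57, and Pnliprp2, at 6.12 and 5.94, lay below the low reference on both arrays. The cofactor gene Clps therefore differed by -1.14 while Pnliprp1 and Pnliprp2, next to each other on the chromosome, differed by -0.11 and -0.17.

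Among other acinar secretory genes, 5 of 22 measured (22.7%) passed 2-fold downward, beside 5.88% of all genes. None passed it upward, and the median was -0.21. Gp2, the main membrane protein of zymogen granules and also a receptor of microfold cells, was at 12.57 and 9.76, 7.01-fold lower. Rnase1, pancreatic ribonuclease, which endothelium makes as well, was at 12.47 and 9.95, 5.71-fold lower. The other 3 were named after their values were seen. Spink1, the pancreatic trypsin inhibitor, was 5.46-fold lower, Zg16, a lectin of zymogen and mucus granules, was 3.63-fold lower, and the trypsinogen gene Prss2 was 2.63-fold lower. Spink1 was at 8.33 and 5.88 and Zg16 at 7.15 and 5.29, so both folds rest on a second level below the low reference. Of the trypsin family, Try4, Try5 and Try10, also named after their values were seen, differed by -0.23, -0.31 and -0.02.

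Of 28 measured receptors of these hormones, 2 (7.14%) passed 2-fold downward and 2 upward, near the 5.88% and 2.97% of all genes, and their median was -0.10. Sstr2, a somatostatin receptor, was at 7.94 and 6.81, 2.18-fold lower, whereas Sstr4, another of that family, was at 7.54 and 8.56, 2.02-fold higher. Sort1, which encodes sortilin, a sorting receptor that also binds neurotensin, was 2.10-fold lower. Ramp2, a partner of calcitonin-family receptors, was at 8.73 and 10.01, 2.43-fold higher. Endothelium also expresses Ramp2, and the summed intensity of 10 endothelial markers was 7607 on the WT-labelled array and 16238 on the cKO-labelled array. The part of endothelial RNA in the Ramp2 value was not tested. With a loess curve, or with a pseudocount of 16, 1 receptor and not 2 was at least 2-fold higher.

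Genes next to the antigen genes were read from the order of protein-coding genes in RefSeq, taking the nearest measured gene on each side. The 8 lower genes had 16 such neighbours, with a median difference of 0.09. Of these, 1 passed 2-fold downward and none upward, beside 5.88% and 2.97% of all genes. That neighbour was Slco1a5, an organic anion transporter whose RefSeq gene model overlaps Iapp on the opposite strand. Slco1a5 was at 8.43 and 6.51, 3.78-fold lower with its second level below the low reference. Whether the probes of these overlapping genes are specific to a strand is not known here, so the value of Iapp is uncertain for that reason. The neighbours of Sst, Ctrb1, Ghrl, Pcsk1, Ptprn2, Clps and Gcg all differed by less than 2-fold. Not all of them are close: the median gap to the 16 neighbours was 20.8 kb, and those of Pcsk1 lie 281 and 573 kb away.

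The 28 other genes had 56 neighbours, of which 5 passed 2-fold downward and 3 upward, beside 5.88% and 2.97% of all genes. These neighbours were singled out after their values were seen. Resp18, an endocrine granule protein related to IA-2 and next to Ptprn, was at 8.82 and 6.15, 6.37-fold lower with its second level below the low reference, where Ptprn differed by -0.61. Cdhr5, a protocadherin of the gut brush border next to Sct, was at 9.90 and 6.64, 9.58-fold lower with its second level at the low reference, where Sct differed by -0.39. Igf2, next to Ins2, was 2.15-fold lower where Ins2 differed by -0.24. Hap1, next to Gast, was 2.74-fold lower and Efhd2, next to Cela2a, was 2.47-fold lower. The 3 higher neighbours were Myct1 next to Vip (3.66-fold), Rassf9 next to Nts (3.17-fold) and Pax1 next to Nkx2-2 (2.38-fold). Ppy and Pyy count as neighbours of each other, as do Pnliprp1 and Pnliprp2.

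**Figure D3:**
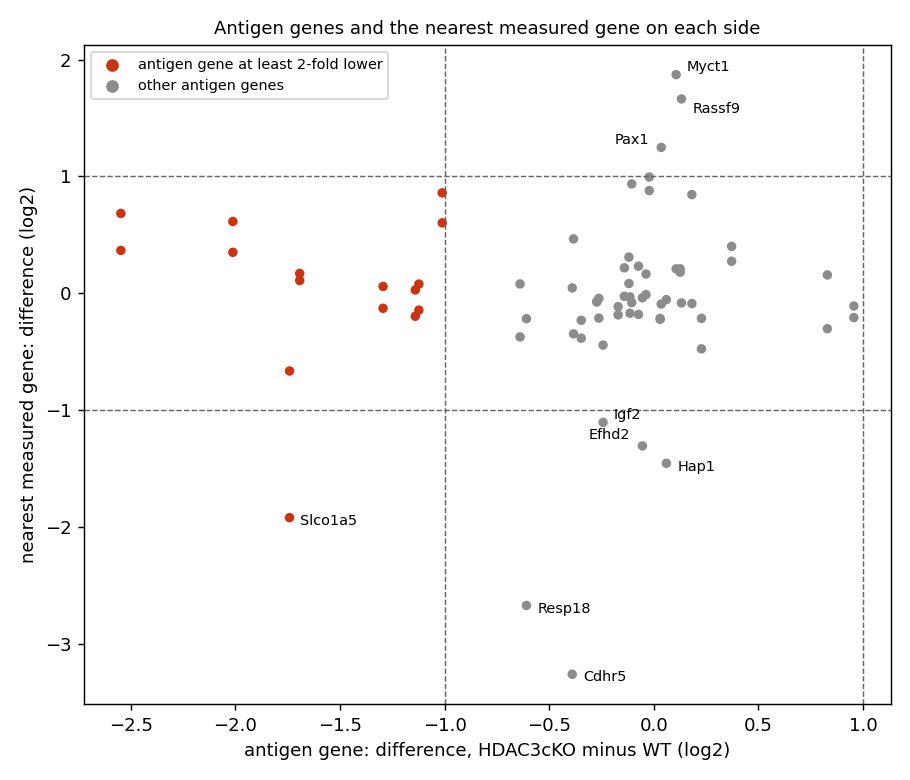
The difference (HDAC3cKO minus WT, log2) of the nearest measured protein-coding gene on each side, against that of the antigen gene itself; each point is 1 neighbour, neighbours of the 8 lower genes are red and those of the other genes grey, and dashed lines mark 2-fold. Of the 16 red points only Slco1a5, beside Iapp, lies below -1, and the labelled grey points are the 8 neighbours past 2-fold beside other antigen genes.

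Among regulators of tissue-restricted antigens, 1 of 13 measured genes (7.69%) was at least 2-fold lower, near the 5.88% of all genes. That gene was Fezf2, at 11.47 and 8.50, and none was at least 2-fold higher. Aire was at 9.78 and 9.23, a difference of -0.55. These values stood beside -0.24 for Ins2 and -2.55 for Sst.

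Markers of other cell types also differed between the arrays, and their part in the values above was not tested. Over all genes, 5.88% passed 2-fold downward and 2.97% upward. All 12 enterohepatic-type markers, genes of gut and liver epithelium, were below 0 and 8 passed 2-fold downward. Hnf4a, Hnf4g and Cdx1 of this list are also counted among the related transcription factors above, and Cdhr5 among the neighbours. Their summed intensity was 4643 on the WT-labelled array and 1552 on the cKO-labelled array. Each of 12 markers of dendritic cells and macrophages was below 0 and 6 passed 2-fold downward, with sums of 17069 and 6869. Of 10 thymocyte and B cell markers 9 were below 0 and 2 passed 2-fold downward, with sums of 5202 and 2975. Each of the 10 endothelial markers was above 0 and 6 passed 2-fold upward. Of 10 fibroblast and pericyte markers 6 were above 0 and 2 passed 2-fold upward, with sums of 17608 and 20362. The 10 medullary epithelial markers lay 5 below and 5 above 0, and 2 passed 2-fold downward, Krt14 by 2.57-fold and Cldn4 by 2.23-fold, with sums of 62029 and 68415. On at least 1 array, 9 of the 12 enterohepatic-type markers and 9 of the 10 thymocyte and B cell markers lay above the low reference, as did each marker of the other 4 lists.

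**Figure D4:**
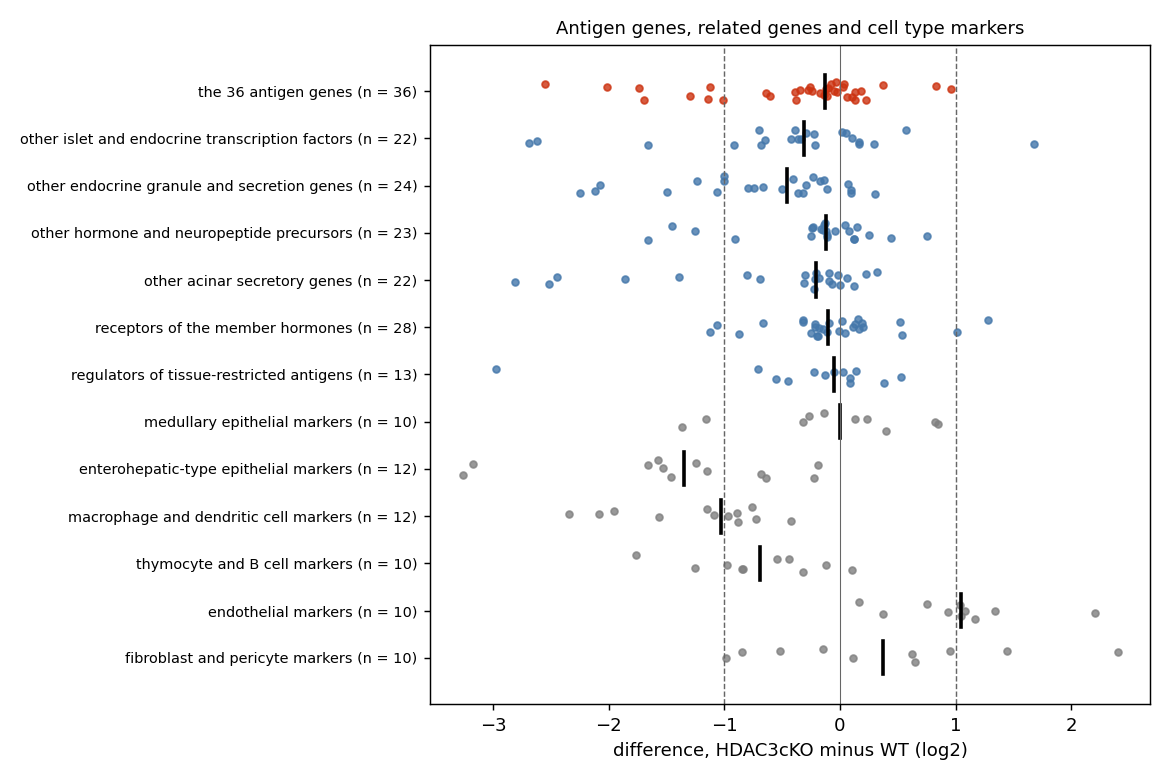
The difference (HDAC3cKO minus WT, log2) of each gene in the 36 antigen genes (red), 6 lists of related genes (blue) and 6 lists of cell type markers (grey); each point is 1 gene, black bars are medians and dashed lines mark 2-fold. Medians run from -1.35 for enterohepatic-type markers to 1.04 for endothelial markers, with -0.13 for the antigen genes and -0.45 for granule and secretion genes.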

How the data were processed

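The authors deposited linear intensities, 1 for each array and each of 34760 probe sets, from Affymetrix Mouse Gene ST arrays. Per the submitters' processing notes the authors used RMA, which corrects background, normalizes across arrays and summarises probes. The settings and the genome build are not stated in the labels. Here log2 of the intensities was taken, with nothing added and without rescaling.

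Gene symbols came from the platform annotation, which may be out of date: 21640 probe sets carried a single symbol, 1321 carried several and were left out, and 11799 were unnamed here. Genes were counted at 2-fold, a difference of 1 or more or -1 or less. With 1 array per genotype no test was possible, and precision is limited by the number of arrays. The members and lists were chosen with earlier results of these data known. All members are named; from each list of related genes up to 2 genes each way with the largest 2-fold differences above the low reference are named, as are Hdac3, Aire, Fezf2, Ins1, Chga, Neurod1, Epcam and Ptprc. Other genes are said to be chosen after their values were seen, Hnf4g, Krt14 and Cldn4 among them. The counts and scalings were tested on simulated data. Alternatives were 3 scalings, averaged probe sets, a pseudocount of 16, thresholds of 1.5-fold and 3-fold, and other low references. The scaling used statsmodels 0.14.6 and numpy 2.4.6 under Python 3.11.15, tables pandas 2.3.3, and plots matplotlib 3.10.9.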

Additional observations from a re-analysis of the deposited data

How the results depend on the processing

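The count of genes at least 2-fold lower was 8. It lay between 7 and 8 under median centring, quantile normalization, a loess curve and a pseudocount of 16. Gcg was the gene lost under 3 of these, the pseudocount included, at -0.86. Averaging probe sets could not change the count, since each measured antigen gene has 1 probe set. At 3-fold the count was 4, and at 1.5-fold it was 10. The shares of all genes past 3-fold and 1.5-fold were not counted, so counts at these thresholds have nothing beside them. The count at least 2-fold higher was 0, 1 after median centring, which added Cck at 1.01, and 2 at 1.5-fold. The median of all genes stayed within 0.1 of 0 under each scaling. The median over the antigen genes was -0.13 and was -1.22 over the 8 genes whose mean level reached 8.03, the median over all genes. That filter takes the mean of both arrays and keeps genes that are high on either, so this median is not support for a larger difference. The count above the low reference was 23, and 14 with the 99th percentile of the olfactory receptor genes in place of the 95th, 28 with the 90th and 34 with vomeronasal receptor genes. No paired analysis was possible because each genotype had 1 array. Without replicate arrays the array-to-array error of these values is unknown.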
